A study of Caenorhabditis elegans with 20 samples.

Results

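The 6 genes described here encode nuclear hormone receptors of Caenorhabditis elegans: nhr-131, nhr-8, nhr-86, nhr-176, nhr-142 and nhr-11. They were taken by name from a table of read counts, as 6 of its 28301 genes and 6 of its 278 genes named nhr with a number. The gene nhr-131 was taken because the study used a mutant of it, and nhr-8, nhr-86 and nhr-176 because of roles in the response to foreign compounds that are known from earlier work. The genes nhr-142 and nhr-11 were taken because F17 raised them: they were chosen by their measured F17 effects in these libraries (both passed the test in wild type), so for these 2 genes the effect of F17 is given as a description and without a test. All 6 genes passed the filter on low counts, as did 13795 genes in all and 182 of the 278 nhr genes.

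RNA was sequenced from whole animals at the L4 stage, the last larval stage. The 20 libraries formed 4 groups of 5. The groups were animals with genotype nhr-131 given F17, animals with genotype nhr-131 given DMSO, wild type given F17 and wild type given DMSO. The table's columns name the wild type as N2, the standard laboratory strain. F17, a compound that the labels name by this code alone, was used at 2.5 µM and DMSO alone at 0.1%, each for the 4 h before harvest. All animals had grown in liquid culture from synchronized first-stage larvae. The labels name the mutated gene but give no allele, so whether the mutation removes the whole gene is not given in the sources used here.

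Nuclear hormone receptors are transcription factors that bind DNA through a zinc-finger domain and are regulated by small lipophilic ligands. The family is greatly expanded in C. elegans, and most of its members there are related to the vertebrate receptor HNF4. Several of them act in the intestine, where foreign compounds are oxidised by cytochrome P450 enzymes, conjugated by transferases and exported by P-glycoproteins. NHR-8 is related to the vertebrate xenobiotic receptors PXR and CAR and is needed in worms for resistance to toxins such as colchicine. NHR-86 detects a bacterial phenazine and switches on immune genes of the intestine. NHR-176 is needed for the induction of the cytochrome P450 gene cyp-35D1 by the anthelmintic thiabendazole.

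Total counts per library ran from 12836432 to 26908383. Levels are given in CPM (counts scaled to a common library total) with library sizes scaled by TMM, and in the library with the smallest scaled size 3 counts equal 0.282 CPM. All 25 marker genes of intestine, muscle, pharynx, hypodermis, neurons, germline and sperm had counts in every library, which fits the label of whole animals. A stage score, the mean z-score of 9 genes that rise at the change from L4 to adult (the vitellogenin genes vit-1 to vit-6 and the collagen genes col-7, col-19 and col-62), averaged 0.541 ± 1.11 in nhr-131 with F17, 0.0939 ± 0.911 in nhr-131 with DMSO, -0.478 ± 0.768 in wild type with F17 and -0.156 ± 0.816 in wild type with DMSO (SD, n = 5). A set of 6 libraries separated from the rest on the leading principal component within groups (53.9% of that variation), and had the lowest stage scores of their groups. These 6 were library c in both nhr-131 groups, libraries a and d from wild type with F17, and libraries a and c from wild type with DMSO. They are called the low-stage libraries from here on, a name that refers to the score alone. Whether their animals were younger was not tested. Values of the 6 genes are given with and without them where a result rests on them. In whole animals, fewer cells of a type and less RNA per cell cannot be told apart.

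**Figure D1:**
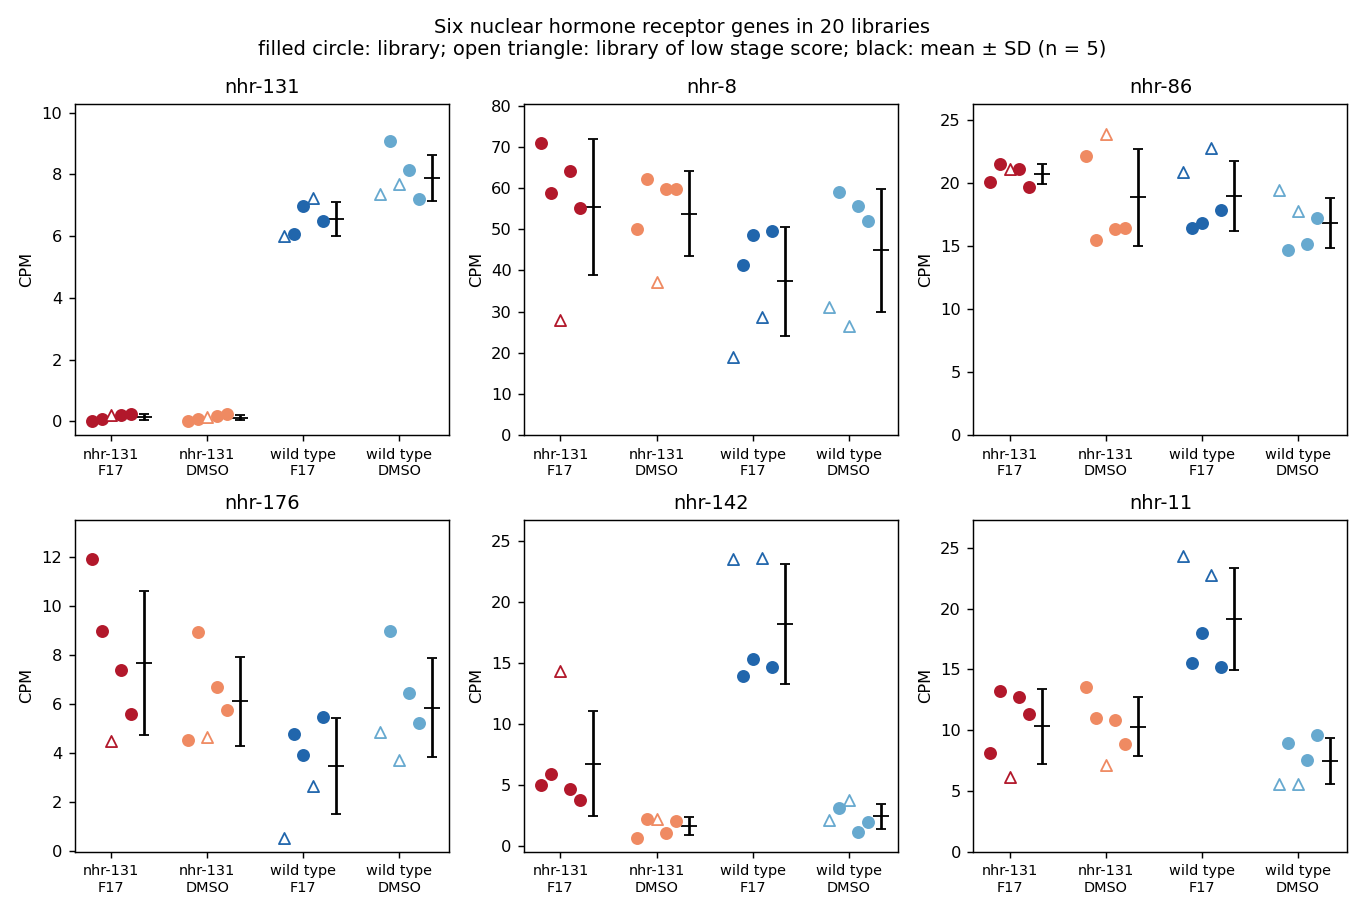
Level in CPM (vertical axis) of each of the 6 receptor genes in each library of the 4 groups (horizontal axis, libraries a to e from left to right within a group). Circles are libraries, open triangles the low-stage libraries, and the black bar is the mean with its SD (n = 5). In the panel of nhr-8 every triangle lies below the circles of its group, and in the panel of nhr-11 the wild-type libraries with F17 lie above all others.

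The mutated gene nhr-131 lies on chromosome V (WBGene00003721, 6 exons in its longest form) and overlaps no other annotated exon. Its level was 0, 0.0733, 0.195, 0.195 and 0.234 CPM in libraries a to e of nhr-131 with F17, and 0, 0.0677, 0.126, 0.157 and 0.236 CPM in those of nhr-131 with DMSO. It was 6.02, 6.06, 6.99, 7.23 and 6.48 CPM in wild type with F17, and 7.37, 9.08, 7.70, 8.13 and 7.22 CPM in wild type with DMSO. The 10 mutant libraries held 0 to 4 counts each and 25 in all, all of them below the 10 wild-type libraries, which held 77 to 196 each and 1402 in all. Scaled for library size, mutants together held 1.82% of the wild-type level (95% exact interval 1.18% to 2.70%, which covers counting error only). A permutation test over all 20 libraries (two-sided, 100000 resamples) gave p = 2e-05, the smallest value these resamples can give. In the fit across all genes nhr-131 was lower in nhr-131 than in wild type, with log2 values of -5.50 (SE 0.44, adjusted p = 2.17e-07) with F17 and -5.93 (SE 0.46, adjusted p = 2.85e-07) with DMSO. Over all genes 2.15% with F17 and 0.384% with DMSO were lower in nhr-131 without overlap of libraries.

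F17 itself did not move nhr-131 past the test in either genotype. In wild type the log2 fold change was -0.27 (SE 0.34, 95% interval -0.97 to 0.43, adjusted p = 0.922), and the highest F17 library, at 7.23 CPM, just overlapped the lowest DMSO library, at 7.22 CPM. This SE comes from a spread estimate shared with the mutant libraries, which held few counts. With only the wild-type groups in the fit the value was -0.27 (SE 0.14, adjusted p = 0.759). In nhr-131 the value of 0.16 (SE 0.53, adjusted p = 1) rests on 14 counts with F17 and 11 with DMSO. The level of nhr-131 in wild type was the steadiest of the 6 genes, with a coefficient of variation of 8.28% with F17 and 9.45% with DMSO. The low-stage libraries of wild type with F17 were its lowest and its highest for this gene.

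Per length of annotated exon, the order of the 6 levels in wild type with DMSO was nhr-8 at 23.7 ± 7.87 CPM per kb, nhr-86 at 11.9 ± 1.38, nhr-131 at 5.06 ± 0.478, nhr-176 at 4.82 ± 1.65, nhr-11 at 3.92 ± 0.988 and nhr-142 at 1.25 ± 0.541 (SD, n = 5). The neighbours nhr-131, nhr-176 and nhr-11 lay within the spread of their libraries, while nhr-8, nhr-86 and nhr-142 lay outside that of the others. Among 174 tested nhr genes with a length, nhr-8 ranked 5, nhr-86 25, nhr-131 68, nhr-176 72, nhr-11 86 and nhr-142 143. With F17 the order in wild type was nhr-8 at 19.8 ± 7.01 CPM per kb, nhr-86 at 13.4 ± 1.95, nhr-11 at 10.1 ± 2.21, nhr-142 at 9.48 ± 2.56, nhr-131 at 4.20 ± 0.348 and nhr-176 at 2.86 ± 1.60. Here the libraries of each of the first 4 genes overlapped those of the next in the order down to nhr-142, and nhr-142, the lowest of the 6 with DMSO, stood above nhr-131 and nhr-176. In nhr-131 with F17 nhr-8 stood at 29.3 ± 8.71 CPM per kb, nhr-86 at 14.6 ± 0.546, nhr-176 at 6.32 ± 2.41, nhr-11 at 5.43 ± 1.62 and nhr-142 at 3.51 ± 2.25. In nhr-131 with DMSO nhr-8 stood at 28.5 ± 5.48 CPM per kb, nhr-86 at 13.3 ± 2.73, nhr-11 at 5.42 ± 1.28, nhr-176 at 5.02 ± 1.48 and nhr-142 at 0.850 ± 0.376. In nhr-131 with F17 the libraries of nhr-8 overlapped those of nhr-86, and those of nhr-176, nhr-11 and nhr-142 overlapped each other. In nhr-131 with DMSO only nhr-11 and nhr-176 overlapped among these 5 genes. The lengths are those of the Ensembl annotation of assembly WBcel235, which may differ from the annotation behind the counts.

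**Figure D2:**
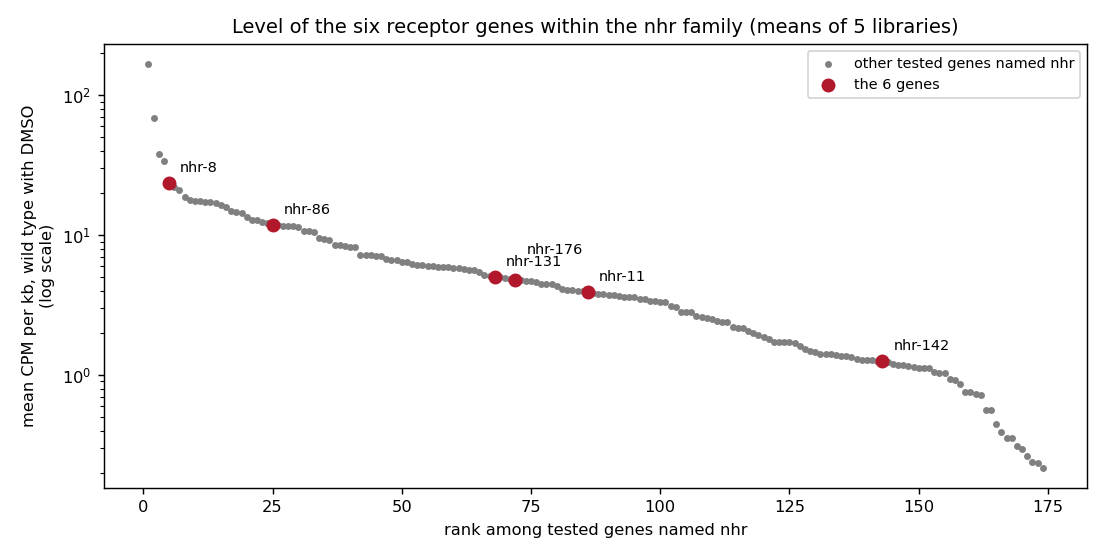
Mean CPM per kb in wild type with DMSO (vertical axis, log scale, means of 5 libraries) for 174 tested genes named nhr, ordered by rank (horizontal axis). The 6 genes are marked in red and spread from rank 5 for nhr-8 to rank 143 for nhr-142.

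The gene nhr-8 (chromosome IV, WBGene00003607) was the most abundant of the 6 in every group. It measured 70.9, 58.8, 28.0, 64.2 and 55.2 CPM in libraries a to e of nhr-131 with F17 and 50.1, 62.2, 37.3, 59.9 and 59.7 CPM in nhr-131 with DMSO. In wild type it measured 18.9, 41.2, 48.5, 28.8 and 49.5 CPM with F17 and 31.2, 58.9, 26.6, 55.7 and 51.9 CPM with DMSO. The groups overlapped, and the low values are those of the low-stage libraries, each of which lay below every other library of its group. No test of F17 or genotype passed for nhr-8. The effect of F17 was 0.04 (SE 0.28, interval -0.55 to 0.64, adjusted p = 1) in nhr-131 and -0.26 (SE 0.28, interval -0.86 to 0.33, adjusted p = 0.907) in wild type. The difference of nhr-131 against wild type was 0.57 (SE 0.28, adjusted p = 0.354) with F17 and 0.26 (SE 0.28, adjusted p = 0.985) with DMSO. Without the low-stage libraries the value with F17 was 0.42 (SE 0.11) and passed the test at adjusted p = 0.0266, from a mean of 62.3 ± 6.87 CPM in nhr-131 (n = 4) against 46.4 ± 4.53 CPM in wild type (n = 3). In that setting 1019 of 13499 tested genes were called for this contrast, against 177 of 13795 with all libraries. With the stage score as a covariate the value of nhr-8 with F17 was 0.08 (SE 0.14, adjusted p = 0.848). The stage score of the remaining libraries still averaged 1.0 ± 0.458 in nhr-131 with F17 against 0.0549 ± 0.329 in wild type with F17.

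An exon of the protein-coding gene F33D4.6 on the opposite strand shares 47 bases with exons of nhr-8. Whether counting used the strand is not stated, so reads of this stretch cannot be assigned with certainty. F33D4.6 ran from 59.9 to 166 CPM in the low-stage libraries and from 346 to 788 CPM in the others. Within groups its log2 level and that of nhr-8 had a Pearson r of 0.95 over the 20 libraries, which share library depth and stage.

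The gene nhr-86 (chromosome V, WBGene00003676) varied least between groups. It measured 20.1, 21.5, 21.1, 21.1 and 19.7 CPM in libraries a to e of nhr-131 with F17 and 22.1, 15.4, 23.9, 16.3 and 16.4 CPM in nhr-131 with DMSO. Wild-type libraries held 20.9, 16.4, 16.8, 22.8 and 17.9 CPM with F17 and 19.4, 14.6, 17.8, 15.1 and 17.2 CPM with DMSO. All groups overlapped. The effect of F17 was 0.14 (SE 0.13, interval -0.14 to 0.41, adjusted p = 1) in nhr-131 and 0.17 (SE 0.13, interval -0.11 to 0.45, adjusted p = 0.858) in wild type. The interval of the difference of these effects ran from -0.43 to 0.36 around -0.04. Against wild type, nhr-131 differed by 0.13 (interval -0.15 to 0.41, adjusted p = 0.639) with F17 and by 0.16 (interval -0.12 to 0.44, adjusted p = 0.985) with DMSO. The spread of nhr-86 among the libraries of nhr-131 with F17 was small, with a coefficient of variation of 3.73%, against 20.5% in nhr-131 with DMSO. An exon of comt-3 on the opposite strand shares 31 bases with nhr-86, and comt-3 ran from 6.55 to 13.8 CPM over the 20 libraries.

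The gene nhr-176 (chromosome V, WBGene00008830) measured 11.9, 8.98, 4.50, 7.40 and 5.61 CPM in libraries a to e of nhr-131 with F17 and 4.52, 8.94, 4.68, 6.69 and 5.74 CPM in nhr-131 with DMSO. Wild-type libraries held 0.547, 4.76, 3.94, 2.66 and 5.49 CPM with F17 and 4.86, 9.0, 3.73, 6.46 and 5.24 CPM with DMSO. Library a of wild type with F17, a low-stage library, held 7 counts, while every other library held at least 48. The groups overlapped in all pairs. The effect of F17 on nhr-176 was 0.33 (SE 0.40, adjusted p = 1) in nhr-131 and -0.74 (SE 0.41, adjusted p = 0.752) in wild type, and the difference of these effects was 1.07 (SE 0.57, interval -0.14 to 2.27, adjusted p = 1). With F17, nhr-131 stood above wild type by 1.13 (SE 0.41), at 7.69 ± 2.93 CPM against 3.48 ± 1.95 CPM (SD, n = 5), which missed the threshold at adjusted p = 0.197. Without the low-stage libraries this difference was 0.84 (SE 0.28, adjusted p = 0.0777). With the stage score as a covariate it was 0.71 (SE 0.33, adjusted p = 0.281). With DMSO the value was 0.07 (SE 0.41, adjusted p = 0.99), at 6.11 ± 1.81 CPM in nhr-131 against 5.86 ± 2.01 CPM in wild type.

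The cytochrome P450 gene cyp-35D1, whose induction by thiabendazole needs NHR-176, fell with F17 in wild type. It measured 3.24, 2.27, 0.929, 2.68 and 1.99 CPM in libraries a to e of nhr-131 with F17 against 3.76, 4.88, 2.44, 7.71 and 4.25 CPM in nhr-131 with DMSO, groups that overlap (-1.06, SE 0.41, adjusted p = 1). The wild-type values were 0.391, 0.974, 0.772, 0.719 and 0.989 CPM with F17 against 1.99, 3.44, 1.34, 6.46 and 3.27 CPM with DMSO, all 5 F17 libraries below all 5 DMSO libraries (-2.08, SE 0.43, adjusted p = 0.0157). The difference of these effects was 1.02 (SE 0.58, adjusted p = 1). The wild-type libraries with F17 held 5 to 19 counts of cyp-35D1, and 0.928% of all genes were called for F17 in wild type. The level of cyp-35D1 rose along the stage score (slope 0.65, SE 0.12), and the part of stage in its fall was not tested. Within groups the log2 levels of nhr-176 and cyp-35D1 had a Pearson r of 0.67 over 20 libraries, and those of nhr-8 and cyp-35D1 an r of 0.87. The low-stage libraries were the lowest of their groups for all 3 genes, except for nhr-176 in nhr-131 with DMSO, so these r values share the stage score of the library.

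Of 2 tested immune genes that NHR-86 is known to switch on, 1 rose with F17 in nhr-131, where 0.478% of all genes were called. F08G5.6, now named irg-4, an infection response gene, averaged 158 ± 9.46 CPM in nhr-131 with F17 against 85.7 ± 15 CPM with DMSO (0.88, SE 0.14, adjusted p = 0.00123). Its F17 libraries all lay above its DMSO libraries in this genotype, as for 0.703% of all genes. In wild type it averaged 116 ± 18.2 CPM with F17 against 92.1 ± 15.1 CPM with DMSO, which did not pass (0.33, SE 0.14, adjusted p = 0.553), and the difference of effects was 0.55 (SE 0.19, adjusted p = 1). F35E12.5, or irg-5, averaged 36.0 ± 7.17 CPM with F17 against 21.6 ± 3.58 CPM with DMSO in nhr-131 (0.74, SE 0.21, adjusted p = 0.268) and 22.6 ± 4.57 CPM with F17 against 29.1 ± 8.08 CPM with DMSO in wild type (-0.36, SE 0.20, adjusted p = 0.766). The difference of effects for F35E12.5 was 1.1 (SE 0.29, adjusted p = 0.308). C32H11.1, or irg-6, held at most 7 counts in a library and was not tested.

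The P-glycoprotein genes, some of which are lower in worms without NHR-8, held 4 genes that passed for F17. Of 14 tested, 1 rose and 0 fell with F17 in nhr-131, where 0.478% of all genes were called, with a median log2 fold change of 0.21 against -0.01 over all genes. In wild type 3 rose and 1 fell, where 0.928% of all genes were called, with a median of -0.09 against -0.01. In the difference of effects 0 of the 14 were called by edgeR, with 4 at unadjusted p under 0.05 (3.20% of all genes were), 1 by DESeq2 and 0 by limma-voom. The export pump gene pgp-9 averaged 379 ± 207 CPM with F17 against 61.4 ± 12.5 CPM with DMSO in nhr-131 (2.62, SE 0.37, adjusted p = 0.00044) and 372 ± 203 CPM against 70.7 ± 18.9 CPM in wild type (2.39, SE 0.37, adjusted p = 0.000703). pgp-1 averaged 279 ± 72.6 CPM with F17 against 156 ± 56.2 CPM with DMSO in nhr-131 (0.84, SE 0.31, adjusted p = 1) and 647 ± 157 CPM against 122 ± 46.4 CPM in wild type (2.40, SE 0.32, adjusted p = 0.000136). In wild type pgp-3 rose by 0.60 (SE 0.14, adjusted p = 0.0468) and pgp-5 fell by 0.77 (SE 0.17, adjusted p = 0.0275). The level of pgp-9 also fell along the stage score (slope -0.52, SE 0.08), as did that of pgp-3 (-0.14, SE 0.05), and that of pgp-1 rose (0.54, SE 0.07). The slope of pgp-5 was -0.10 (SE 0.07). The part of stage in the F17 effects on these P-glycoprotein genes was not tested.

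The receptors nhr-142 and nhr-11 are family members for which no role is stated here. The gene nhr-142 (chromosome V, WBGene00018430, 10 exons in its longest form) showed the largest response to F17 of the 6. It measured 5.00, 5.90, 14.4, 4.63 and 3.80 CPM in libraries a to e of nhr-131 with F17 against 0.659, 2.17, 2.23, 1.06 and 2.05 CPM in nhr-131 with DMSO. In wild type it measured 23.5, 13.9, 15.4, 23.6 and 14.7 CPM with F17 against 2.09, 3.13, 3.77, 1.14 and 1.92 CPM with DMSO. In both genotypes every F17 library exceeded every DMSO library, as 0.703% of all genes did in nhr-131 and 1.45% in wild type, and the highest F17 library of each genotype was a low-stage library. The fitted log2 fold change of F17 was 2.03 (SE 0.41) in nhr-131 and 2.91 (SE 0.41) in wild type, a difference of -0.88 (SE 0.56). Leaving out library c of the nhr-131 animals with F17, the effect in nhr-131 was 1.55. Without the 6 low-stage libraries the effects were 1.70 (SE 0.33) in nhr-131 and 2.85 (SE 0.37) in wild type. With the stage score as a covariate they were 2.16 (SE 0.30) in nhr-131 and 2.78 (SE 0.29) in wild type.

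The comparison of genotypes with F17 shares the wild-type F17 libraries with the effect that chose nhr-142 and is given without a test. With F17, nhr-131 averaged 6.74 ± 4.33 CPM and wild type 18.2 ± 4.92 CPM (SD, n = 5), a log2 difference of -1.43 (SE 0.39). The groups overlapped through library c of nhr-131, at 14.4 CPM, which lay above the lowest wild-type library, at 13.9 CPM. Without the 6 low-stage libraries the difference was -1.60 (SE 0.31), at 4.83 ± 0.873 CPM in nhr-131 (n = 4) against 14.6 ± 0.722 CPM in wild type (n = 3). With the stage score as a covariate the difference was smaller, at -1.05 (SE 0.29). With DMSO the log2 difference was -0.55 (SE 0.40, interval -1.40 to 0.30), at 1.63 ± 0.723 CPM in nhr-131 against 2.41 ± 1.04 CPM in wild type. The mean genotype effect over both treatments was -0.99 (SE 0.28) and missed the threshold at adjusted p = 0.082. Its weights are orthogonal to those of the F17 effects. It still uses the libraries that chose the gene, and their counts differ in precision, so it may not be free of that choice. Of 28 alternatives 24 left the mean effect uncalled and 4 passed, with adjusted p from 0.00855 to 0.165. On all 20 libraries it passed with the Wald test of DESeq2 (-0.998, adjusted p = 0.0173). It also passed without library c of nhr-131 with F17 (-1.23, adjusted p = 0.00855) and without the low-stage libraries (-1.02, adjusted p = 0.0263), which leaves groups of unequal size. Genes called for this contrast numbered 646, 602 and 528 in these 3 settings, against 248 in the main fit. With the stage score as a covariate the mean effect of nhr-142 was -0.74 (SE 0.22) and did not pass, at adjusted p = 0.0561. Since the contrast uses libraries that chose the gene, nothing is read from the passes. The non-coding gene linc-92 shares 304 bases of exon with nhr-142 on the same strand, so part of the reads could belong to either.

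The gene nhr-11 (chromosome IV, WBGene00003610, 11 exons in its longest form) was high in a single group. It measured 8.12, 13.2, 6.11, 12.8 and 11.3 CPM in libraries a to e of nhr-131 with F17 against 13.6, 11, 7.12, 10.8 and 8.89 CPM in nhr-131 with DMSO, and these groups overlapped. The wild-type values were 24.3, 15.5, 18.0, 22.8 and 15.2 CPM with F17 against 5.59, 8.92, 5.54, 7.56 and 9.64 CPM with DMSO. All F17 libraries lay above all DMSO libraries, as for 1.45% of all genes, and this order is part of the effect that chose nhr-11. The fitted effect of F17 was 0.01 (SE 0.23) in nhr-131 and 1.36 (SE 0.24) in wild type, a difference of -1.36 (SE 0.33). Without the low-stage libraries the difference was -0.85 (SE 0.26), and with the stage score as a covariate -1.58 (SE 0.31). The effect in wild type was 0.89 (SE 0.20) without the low-stage libraries. These libraries are the highest with F17 and the lowest with DMSO in that genotype.

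In the genotype comparison with F17, nhr-11 averaged 10.3 ± 3.08 CPM in nhr-131 against 19.1 ± 4.19 CPM in wild type (SD, n = 5), and all 5 libraries of nhr-131 lay below all 5 of wild type. The log2 difference was -0.89 (SE 0.23), given without a test for the same reason as for nhr-142. The share of all genes with such an order was 2.15%. Without the low-stage libraries the difference was -0.51 (SE 0.18), and with the stage score as a covariate it was -1.17 (SE 0.24). With DMSO the sign was the other one, at 0.46 (SE 0.23, interval -0.03 to 0.95), from 10.3 ± 2.42 CPM in nhr-131 against 7.45 ± 1.88 CPM in wild type. The mean genotype effect over both treatments was -0.21 (SE 0.16, adjusted p = 0.504).

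**Figure D3:**
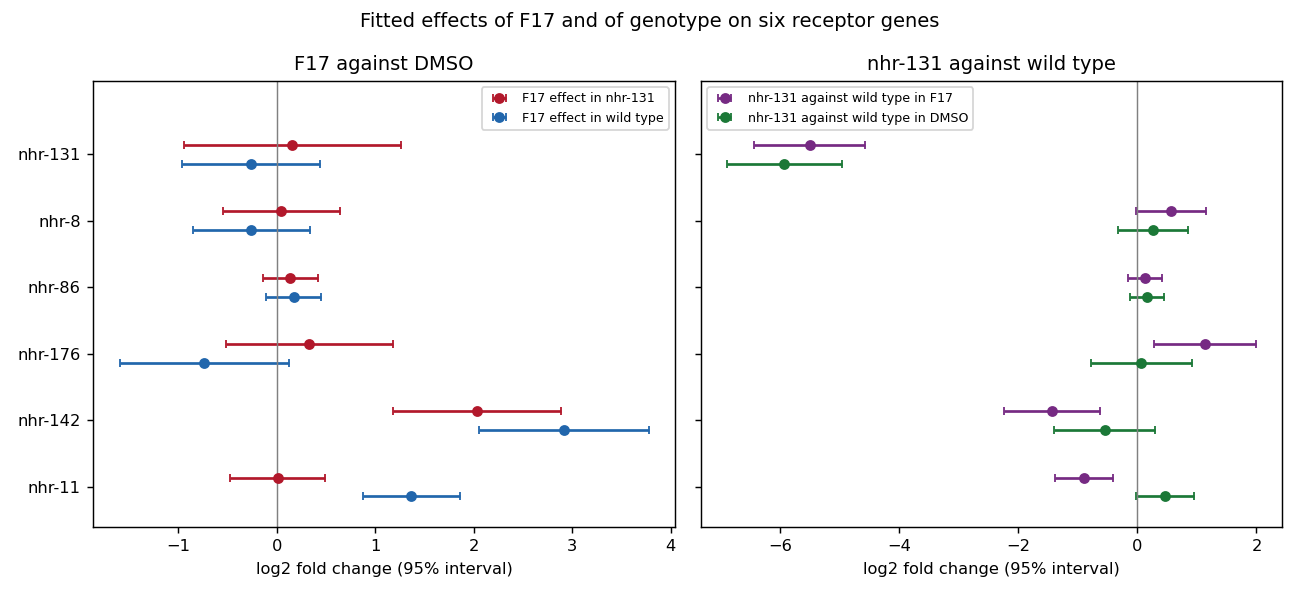
Fitted log2 fold changes with 95% intervals (horizontal axis) of the 6 genes (vertical axis) for F17 against DMSO within each genotype on the left, and for nhr-131 against wild type within each treatment on the right. With F17 in wild type nhr-142 lies at 2.91 and nhr-11 at 1.36, and in nhr-131 these 2 genes lie at 2.03 and 0.01. The F17 effects on nhr-142 and nhr-11 in the left panel chose these genes and carry no test.

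In counts over the 6 genes, edgeR called 1 for F17 in nhr-131 (nhr-142), where 0.478% of all genes were called. In wild type it called 2 (nhr-142 and nhr-11), where 0.928% were called. DESeq2 called 1 and 2, against 94 and 197 of 13795 genes, and limma-voom 0 and 2, against 65 and 124. The F17 effects chose these genes and nothing is read from the calls. For nhr-131 against wild type, edgeR called 1 of 6 with F17 and 1 of 6 with DMSO, each time the mutated gene. Of all genes it called 1.28% and 0.029%. With F17, DESeq2 and limma-voom each called 3 of 6 (nhr-131, nhr-142 and nhr-11), against 537 and 205 of 13795 genes. With DMSO each called 1 of 6, against 11 and 4 of 13795 genes. nhr-142 and nhr-11 were chosen with these libraries, so nothing is read from their calls. In the difference of effects, where 0.246% of all genes were called, 0 of 6 were called by edgeR, with 1 at unadjusted p under 0.05, 1 by DESeq2 and 0 by limma-voom. That 1 gene is nhr-11, whose difference uses the libraries that chose it, so nothing is read from it. The nhr genes that came next to nhr-142 and nhr-11 for F17 in wild type, and were not called, were nhr-202, at 6.07 ± 1.99 CPM with F17 against 11.7 ± 2.86 CPM with DMSO (-0.94), and nhr-106, at 10.9 ± 2.83 CPM against 6.31 ± 1.89 CPM (0.79).

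Of the tested nhr genes other than these 6, 0 were called by edgeR for F17 in nhr-131 (13 at unadjusted p under 0.05, 3 by DESeq2, 0 by limma-voom) and 0 in wild type (16, 4 and 0). Over all genes 3.07% in nhr-131 and 7.60% in wild type were at unadjusted p under 0.05, and DESeq2 called 94 and 197 of 13795. Their median effect of F17 was -0.03 in nhr-131, with 78 above 0, and -0.17 in wild type, with 47 above 0, against medians of -0.01 over all genes in both genotypes. For nhr-131 against wild type with F17, nhr-31 was higher (0.43, SE 0.10, adjusted p = 0.0461), at 111 ± 12.9 CPM in nhr-131 against 82.3 ± 5.73 CPM in wild type, and nhr-40 was lower (-0.55, SE 0.11, adjusted p = 0.0178), at 20.5 ± 3.27 CPM against 30.1 ± 2.05 CPM. These 2 were 1.14% of the family tested, near the 1.28% of all genes called. With F17, DESeq2 called 11 of the family and 537 of all 13795 genes, and limma-voom 2 and 205. At unadjusted p under 0.05 were 37 of the family and 14.97% of all genes. Over both treatments nhr-3 was higher in nhr-131 (0.52, SE 0.13, adjusted p = 0.0362), where edgeR called 1.8% of all genes. DESeq2 called 13 of the family and 646 of all 13795 genes for this contrast, and limma-voom 2 and 266. The unadjusted p was under 0.05 for 35 of the family and for 16.1% of all genes. Of 28 tested genes that encode other regulators of detoxification and metabolism, such as the Mediator subunit gene mdt-15, skn-1, ahr-1 and nhr-49, edgeR, DESeq2 and limma-voom each called 0 for F17 in either genotype, and 0 were at unadjusted p under 0.05. These counts stand against 0.478% of all genes called in nhr-131 and 0.928% in wild type, beside which 0 of 28 is not a result about the list. Their medians were -0.09 in nhr-131 and -0.11 in wild type.

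A set of 4 of the 6 genes followed the stage score of the library, 2 upward and 2 downward. In a fit with 4 group means and the stage score, a measure that did not choose the genes, nhr-8 rose by 0.49 on the log2 scale per unit of score (SE 0.06, adjusted p = 2.21e-06) and nhr-176 by 0.46 (SE 0.14, adjusted p = 0.00902). nhr-142 fell by 0.46 (SE 0.11, adjusted p = 0.00203) and nhr-86 fell by 0.14 (SE 0.05, adjusted p = 0.0183). nhr-11 missed the threshold at 0.21 (SE 0.09, adjusted p = 0.0643) and nhr-131 was at -0.01 (SE 0.15, interval -0.33 to 0.30). In this fit 53.4% of all genes were called, 26.6% upward and 26.8% downward, so 4 of 6 is near the share of all genes. Markers of cell types moved along the same score: 4 of 4 germline markers (median slope -1.01) and 2 of 3 pharynx markers (-0.999) fell, and 3 of 4 intestine markers (0.37) and 2 of 4 sperm markers (0.43) rose. Of the other lists, 1 of 3 muscle markers fell, 1 of 3 hypodermis markers rose and 1 fell, and 1 of 4 neuron markers rose and 2 fell. Their part in the slopes of the receptor genes was not tested. These slopes rest on the low-stage libraries: without them 0 of the 6 passed, with slopes of 0.16 for nhr-8, 0.25 for nhr-176, -0.04 for nhr-86 and 0.06 for nhr-142.

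The low-stage libraries show the same pattern as values. For nhr-8, the low-stage libraries lay at 28.0 CPM in nhr-131 with F17, 37.3 CPM in nhr-131 with DMSO, 18.9 and 28.8 CPM in wild type with F17 and 26.6 and 31.2 CPM in wild type with DMSO, against 41.2 CPM and above in all other libraries. For nhr-142 they were the highest of their group in all groups but wild type with DMSO, where they overlapped the rest. nhr-11 differed between groups in this respect. Its low-stage libraries were the lowest of nhr-131 with F17 (6.11 CPM), of nhr-131 with DMSO (7.12 CPM) and of wild type with DMSO (5.54 and 5.59 CPM), and the highest of wild type with F17 (22.8 and 24.3 CPM).

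**Figure D4:**
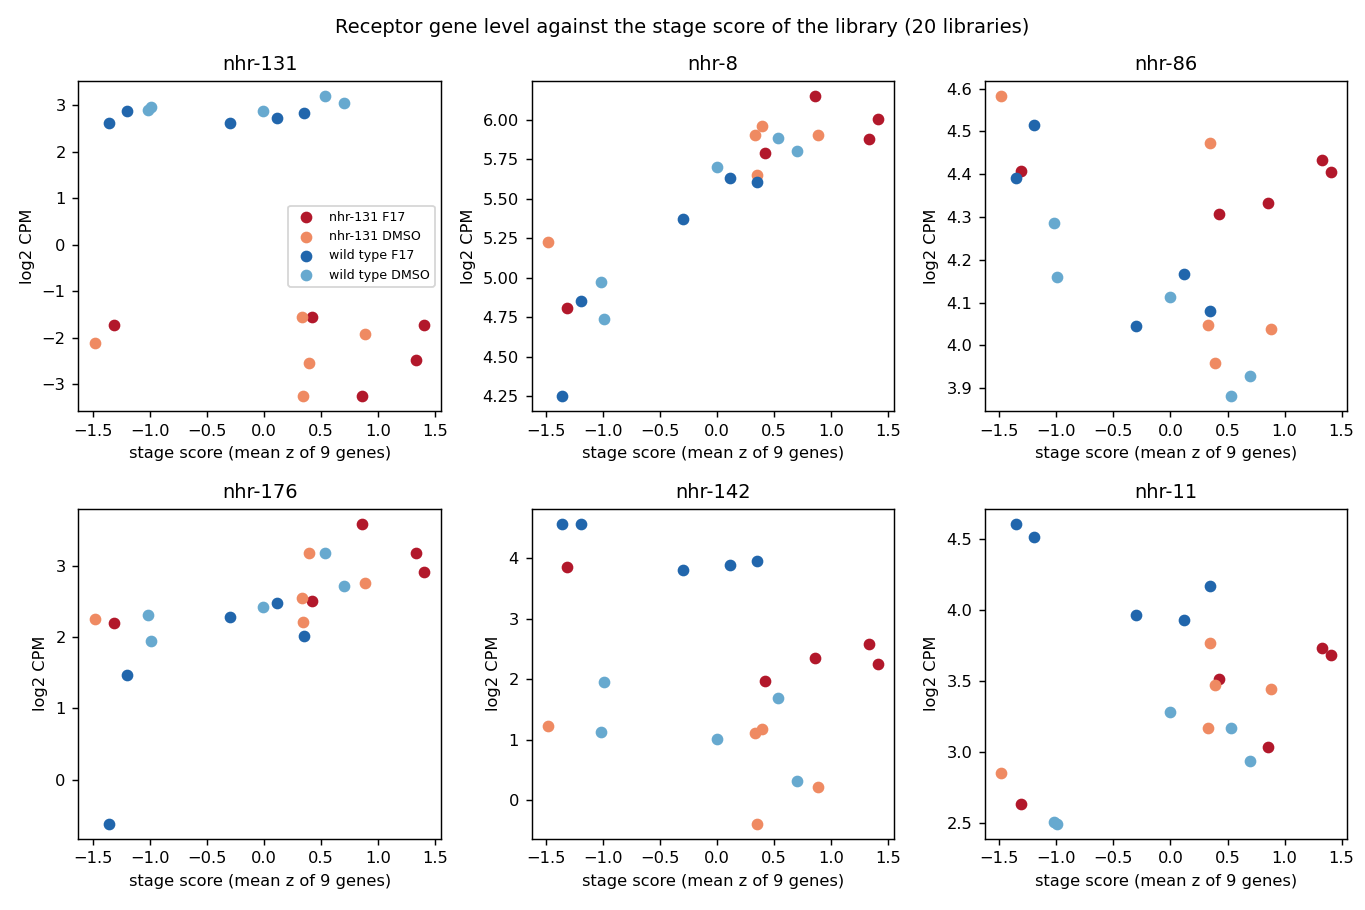
Level of each gene in log2 CPM (vertical axes) against the stage score of the library (horizontal axes, mean z-score of 9 genes) in 20 libraries coloured by group. The low-stage libraries, which lie farthest left in each group, are the lowest points of their group for nhr-8, and the 2 low-stage wild-type libraries with F17 are the highest points for nhr-11.

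Within groups, the 6 genes fell into different company. The log2 levels of nhr-8 and nhr-176 had a Pearson r of 0.83 over the 20 libraries, those of nhr-8 and nhr-86 an r of -0.65, and those of nhr-8 and nhr-142 an r of -0.57. The values of nhr-131 over the 10 wild-type libraries had r between -0.24 and 0.41 with the other 5. Among 10303 other genes, the within-group pattern of nhr-8 was most like that of cyp-25A1, tre-4 and dhs-6 (each r = 0.99), and that of nhr-176 most like Y82E9BR.13, R151.1 and R10E8.8 (r from 0.95 to 0.96). For nhr-86 the most similar were nhr-274, Y92H12A.2 and rpb-2 (r from 0.80 to 0.82), for nhr-142 C55A6.6, F56D2.5 and twk-24 (0.84 to 0.87), and for nhr-11 H24K24.3, gst-28 and dnpp-1 (0.84 to 0.85). Over the 20 libraries as they stand, nhr-142 was most like T16G1.5, ugt-9 and cyp-13A6 (r from 0.90 to 0.91), and nhr-11 most like F14B4.2, F12E12.11 and pgp-1 (0.86 to 0.87). The log2 fold changes of F17 of the last 3 were 0.34, 0.32 and 0.84 in nhr-131, and 1.48, 3.29 and 2.40 in wild type. All these r values are descriptions over libraries that share treatment, stage and depth.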

How the data were processed

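The authors deposited whole read counts per gene for 20 libraries, and per the submitters' processing notes TopHat2 and HTSeq were used. Not given in the sources used here: their versions, genome build, annotation and strand setting. Coordinates are therefore not printed. Libraries were poly(A), made with a directional kit per the labels' protocols. Genes of ribosomal RNA (named rrn) took 2.24% to 27.5% of the counts of a library. In the low-stage libraries this share ran from 2.24% to 22.5%, and its part in the results was not tested. Each column names its group and a letter that is tied to no replicate number in the labels. No replicate was a copy of another (lowest chi-square per degree of freedom 22.7).

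The fit used edgeR 4.0.16 (R 4.3.3): filterByExpr (minimum count 10), TMM, 1 quasi-likelihood model with 4 group means over 20 libraries (16 residual degrees of freedom, robust), F-tests of 6 contrasts, and Benjamini-Hochberg adjustment over all 13795 tested genes. Adjusted p under 0.05 is a call. "Difference of effects" is nhr-131 minus wild type. Each SE was derived from the fold change and its F statistic. The script was tested on simulated data. Log2 CPM used a prior count of 2. Exon lengths and chromosomes come from Ensembl WBcel235. Low-stage libraries are those below the largest gap on the first within-group component. p-values measure the spread between libraries, which the series' design text calls independent biological replicates.

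The members and lists were chosen with earlier results of these data known. Named were the 6 genes, reported downstream genes, called P-glycoprotein genes, up to 4 called regulators or nhr genes per contrast, and the 3 most similar genes per member (Pearson r, mean log2 CPM at least 1). nhr-202, nhr-106 and the genes overlapping a member were named after their values were seen, and the slope on the stage score was added then too. Alternatives were DESeq2 size factors, no filter, a strict filter (50 counts in 5 libraries), DESeq2 1.42.0, limma-voom (limma 3.58.1), the stage score as covariate, no low-stage libraries, only the groups compared, a replicate block, and each library left out.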

Additional observations from a re-analysis of the deposited data

Results flagged for a closer look

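One value stood apart from the other libraries of its group. nhr-142 in library c of nhr-131 with F17 measured 14.4 CPM (294 counts), while the next highest library of that group was at 5.90 CPM, and the gap was 0.801 of the group's range, above the critical value of 0.71 for 5 libraries. The library is a low-stage one, and the part of stage in the value was not tested. Of 24 pairs of gene and group examined 1 was marked, and chance marks about 1 in 20.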

How the results depend on the processing

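Of 1175 values of the 6 genes under the alternatives, 1106 kept their direction and side of the threshold, 11 lost a call, 23 gained one and 35 changed sign. The depth limits nhr-131 in the mutant (0 to 4 counts a library) and nhr-142 with DMSO. The cause of each change below was not tested.

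Genes called numbered 66 for F17 in nhr-131, 128 for F17 in wild type, 34 for the difference of effects, 4 and 177 for genotype with DMSO and with F17, and 248 for the mean genotype effect. DESeq2 gave 197 for F17 in wild type, 52 for the difference, 11 and 537 for genotype with DMSO and F17, and 646 for the mean. With the stage score as covariate the numbers in the first order were 117, 236, 58, 7, 604 and 602. Without the low-stage libraries they were 140, 906, 116, 11, 1019 and 528, and 63 for the stage slope against 7365. With only the groups compared genotype with F17 gave 107. Leaving out each library gave 60 to 76 for F17 in nhr-131, 109 to 150 for F17 in wild type, 19 (without wild type F17 c) to 31 for the difference, 83 (without nhr-131 F17 d) to 449 (without nhr-131 F17 c) for genotype with F17, 130 (without nhr-131 F17 b) to 602 (without nhr-131 F17 c) for the mean, 4 to 5 for genotype with DMSO and 6065 to 7727 for the slope. With the column letter as a replicate block the difference gave 20, and the other 5 contrasts gave 66, 123, 5, 187 and 259. Under the block the mean genotype effect of nhr-142 was -1.08 (adjusted p = 0.0442), against -0.99 (adjusted p = 0.082) in the main fit. This contrast uses the libraries that chose nhr-142, so nothing is read from the pass. The labels do not say that a letter pairs libraries, and 17 of 30 same-letter pairs correlated above 0.1 (range -0.68 to 0.82), so not all did. Pairs of different letters were not compared.

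Signs changed as follows. For F17 in nhr-131, nhr-131 was at -0.0409 with limma-voom, -0.0185 without the low-stage libraries and -0.0702 to 0.43 without 1 library, nhr-8 at -0.22 with the stage covariate and -0.0639 to 0.21 without 1 library, and nhr-11 at -0.10 with the stage covariate, -0.0110 with the replicate block and -0.10 to 0.15 without 1 library. For the difference, nhr-8 was at -0.11 with the stage covariate, and nhr-86 at 0.0045 with limma-voom, 0.0893 with the stage covariate, 0.12 without the low-stage libraries and -0.10 to 0.0714 without 1 library. For genotype with DMSO, nhr-176 was at -0.0056 with the stage covariate, -0.0836 without the low-stage libraries and -0.11 to 0.27 without 1 library. Without the low-stage libraries the stage slope was 0.16 for nhr-131 and 0.0579 for nhr-142, and that of nhr-131 was -0.0398 to 0.0460 without 1 library.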
